A study of Mus musculus with 7 samples.

Results

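Cluster 4 is 1 of 6 cell clusters, numbered 0 to 5 by the authors, in a single-cell RNA library of cultured neural stem and progenitor cells (NSPCs) from the dentate gyrus of adult mice. Its cells were taken as those whose deposited name carries the cluster number 4, which gave 1428 of 14912 cells (9.58%, exact binomial 95% interval 9.11 to 10.1%). The library pooled 3 primary cultures, 2 female and 1 male, from C57Bl6J mice 6 to 9 weeks old, grown as adherent cells at passages 6 to 15 with epidermal growth factor and basic fibroblast growth factor at 20 ng/ml each. Bulk RNA of 4 such cultures (F1 and F2 from females, M1 and M2 from males, mice 6 to 8 weeks old) and of whole dentate gyrus from 2 mice (female F1, male M2, 7 to 9 weeks old) was sequenced beside it. The labels name no genetic change or drug in any group. The cultures hold only cells that grow in this medium, and the whole tissue holds mostly other cell types, such as granule neurons and glia.

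The dentate gyrus is the hippocampal region in which new granule neurons arise from dividing progenitors in the adult. A dividing cell copies its DNA in S phase, prepares for division in G2 and then separates the copies in mitosis. Entry into mitosis is driven by cyclin B bound to the kinase Cdk1 together with the Polo and Aurora kinases. Exit is driven by the anaphase-promoting complex (APC/C), a ubiquitin ligase that marks cyclin B and other mitotic proteins for destruction. Many genes of this program are transcribed late in the cycle, and 2 short promoter elements are known for this timing: the cell cycle genes homology region (CHR), bound by MuvB complexes, and the CCAAT box, bound by NF-Y. Genes of DNA replication are instead known for E2F elements.

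Promoter sequences of 8 genes show these elements, for the 5 marker genes given with the cluster (Ube2c, Cenpf, Top2a, Prc1 and Ccnb1), for Cdc20 and, as a contrast, for the replication genes Mcm6 and Hells, which were lower in cluster 4 than in cluster 2. Cdc20, Mcm6 and Hells were picked as examples without a rule, and many genes of their sets lack these elements, as the shares given below show. Each stretch runs 5′ to 3′ on the gene's strand from 120 bases before to 12 bases after the start of transcription in RefSeq on GRCm38.p6. Capitals mark the letters TTTGAA (the CHR), CCAAT, and 4 E2F words (TTTGGCGC, TTTCCCGC, TTTGCCGC and TTTCGCGC), each on either strand, so that TTCAAA and ATTGG are matches on the other strand. Overlapping matches run together in capitals. The stretches lie at chr2:164769809-164769940 (plus strand, Ube2c), chr1:189688075-189688206 (minus strand, Cenpf), chr11:99024178-99024309 (minus strand, Top2a), chr7:80294331-80294462 (plus strand, Prc1, the first of 2 listed starts), chr13:100786475-100786606 (minus strand, Ccnb1), chr4:118437332-118437463 (minus strand, Cdc20), chr1:128359694-128359825 (minus strand, Mcm6) and chr19:38930870-38931001 (plus strand, Hells).
Ube2c: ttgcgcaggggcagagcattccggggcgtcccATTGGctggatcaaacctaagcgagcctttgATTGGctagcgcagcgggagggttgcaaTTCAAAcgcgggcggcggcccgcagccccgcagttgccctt
Cenpf: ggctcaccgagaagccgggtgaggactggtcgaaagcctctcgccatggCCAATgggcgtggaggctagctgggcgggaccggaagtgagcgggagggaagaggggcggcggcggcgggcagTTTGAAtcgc
Top2a: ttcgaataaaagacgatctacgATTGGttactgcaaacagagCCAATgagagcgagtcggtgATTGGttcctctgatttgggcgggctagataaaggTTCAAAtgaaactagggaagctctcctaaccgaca
Prc1: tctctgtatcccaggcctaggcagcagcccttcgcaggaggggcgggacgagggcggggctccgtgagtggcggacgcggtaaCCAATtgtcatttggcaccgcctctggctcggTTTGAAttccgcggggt
Ccnb1: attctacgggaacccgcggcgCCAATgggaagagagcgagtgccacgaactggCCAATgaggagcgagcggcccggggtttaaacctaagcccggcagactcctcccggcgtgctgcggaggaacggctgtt
Cdc20: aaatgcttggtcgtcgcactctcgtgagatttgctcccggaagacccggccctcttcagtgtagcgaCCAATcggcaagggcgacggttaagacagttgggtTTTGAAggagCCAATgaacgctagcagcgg
Mcm6: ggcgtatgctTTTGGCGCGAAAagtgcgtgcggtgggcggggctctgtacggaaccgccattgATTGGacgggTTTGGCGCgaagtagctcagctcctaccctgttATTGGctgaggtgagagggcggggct
Hells: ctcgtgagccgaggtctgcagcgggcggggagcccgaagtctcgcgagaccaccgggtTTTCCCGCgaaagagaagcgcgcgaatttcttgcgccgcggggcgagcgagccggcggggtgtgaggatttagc

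In the stretch printed for Ube2c the CHR began 29 bases before the start and 2 CCAAT boxes began 88 and 57 bases before it. Cdc20 had its CHR at 18 bases and CCAAT boxes at 53 and 8 bases before the start. In Prc1 the CHR began 5 bases before the start. Ccnb1 held CCAAT boxes at 99 and 67 bases before the start, and the letters TTTGAA were not in its window of 300 bases. Mcm6 held 3 E2F matches, 2 of them overlapping, and 2 CCAAT boxes in the stretch, and Hells held 1 E2F match.

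Levels are given below as unique molecular identifiers (UMIs), each standing for 1 captured transcript, per 10000 UMIs of the cluster's cells. A gene is called higher or lower in cluster 4 past a 2-fold ratio, where its level was at least 0.5 UMIs per 10000 in either group. These ratios carry exact 95% intervals for counting error only. The 3 cultures formed 1 library, so cells are not replicates, and the authors' clusters were made from the same values: the differences between clusters are a description, with no test. Cluster 4 held 7425510 UMIs, with a median of 5270 per cell (2121 to 7263) against 3431 in cluster 1, 4731 in cluster 2 and 3952 over all other cells. The median number of genes per cell was 2121 in cluster 4 and 1679 in all other cells. No doublet caller was run. Cells with UMIs of both Xist and a Y-linked gene made up 25 of 1428 cells (1.75%) in cluster 4 and 2.13% of the other cells at full depth, and 0.210% and 0.712% when each cell was drawn to 2000 UMIs. All 14912 barcodes were distinct.

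The 5 marker genes came with the mitotic label of the cluster, so their levels describe the label and do not test it. Ube2c, the ubiquitin-conjugating enzyme of the APC/C, stood at 11.1 UMIs per 10000 in cluster 4, at 2.28 in cluster 1, 3.05 in cluster 2, and 0.488, 0.609 and 0.427 in clusters 0, 3 and 5. Cenpf, a kinetochore protein made in G2, stood at 8.52 in cluster 4, at 2.84 and 2.04 in clusters 1 and 2, and at 0.171 to 0.344 in the other 3. All 5 markers were highest in cluster 4, and the next level was always that of cluster 1 or cluster 2. Top2a, the topoisomerase that untangles replicated DNA, stood at 9.46 in cluster 4, 5.88 in cluster 2 and 1.19 in cluster 1. Prc1, which bundles the microtubules of the spindle midzone, stood at 5.21, 1.85 and 0.624 in the same order. Ccnb1, cyclin B1, stood at 5.07 in cluster 4, 2.10 in cluster 1 and 1.30 in cluster 2. Cluster 2 was thus the nearer of the pair for Ube2c, Top2a and Prc1, and cluster 1 for Cenpf and Ccnb1.

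**Figure D1:**
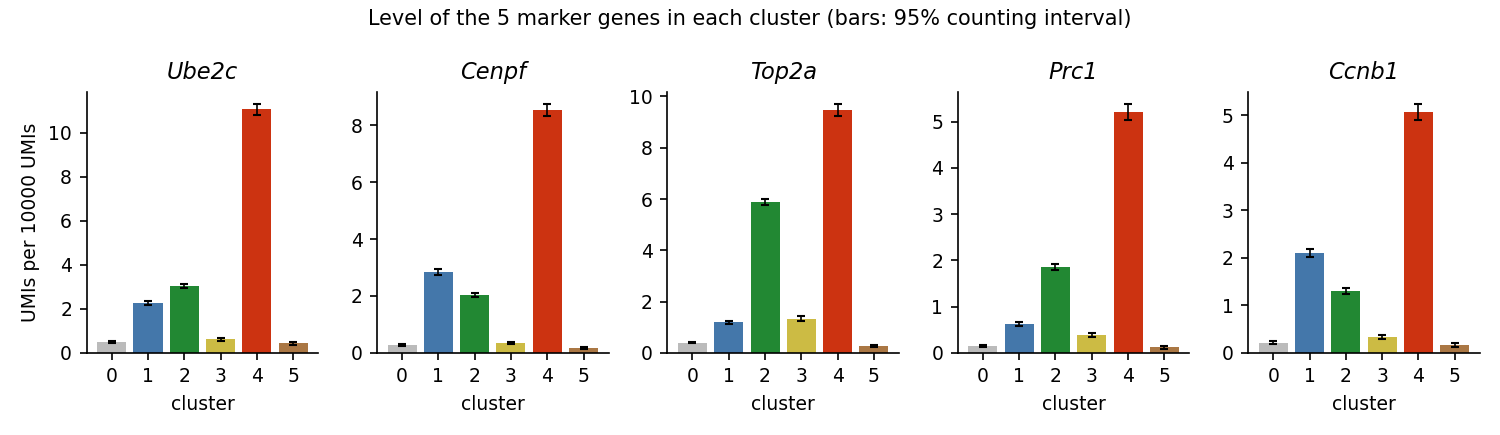
Level of each marker gene in UMIs per 10000 UMIs (vertical axis, linear from 0) in clusters 0 to 5, with exact Poisson 95% intervals. Cluster 4 has the tallest bar in all 5 panels, and the next tallest is cluster 2 for Ube2c, Top2a and Prc1 and cluster 1 for Cenpf and Ccnb1.

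Single cells were compared at equal depth by drawing 2000 UMIs from each, which left out 0 cells. At that depth Ube2c had a UMI in 85.9% of cluster 4 cells, Top2a in 82.4%, Cenpf in 79.8%, Ccnb1 in 62.6% and Prc1 in 61.8%. Without thinning the shares were 98.2, 97.0, 96.8, 90.6 and 88.8%. In cluster 1 the thinned shares were 33.2% for Ube2c, 19.5% for Top2a and 10.0% for Prc1. All 5 markers were found together in 349 thinned cells of cluster 4 (24.4%), in 61 cells of cluster 2 (1.87%), in 11 of cluster 1 (0.334%), and in 0 of the 3925 cells of cluster 0 (95% upper limit 0.0939%). Before thinning, 1085 cluster 4 cells (76.0%), 15.3% of cluster 2 and 2.82% of cluster 1 had all 5. Of the 421 thinned cells with all 5 markers, 82.9% were in cluster 4. Of the 1324 cells with at least 4, 65.6% were in cluster 4, 24.3% in cluster 2 and 9.82% in cluster 1. Only 2 cells of cluster 4 had no marker UMI after thinning, and none was without one at full depth.

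Against all other cells, 110 of 3061 genes compared were at least 2-fold higher in cluster 4 (3.59%) and 3 were at least 2-fold lower (0.0980%). Of the 110, 79 belonged to 1 or more of 6 lists of mitosis genes or to the list of tubulins, and 0 to the list of replication genes. For 108 of the 110 cluster 4 had the highest level of the 6 clusters. The exceptions, named after their values were seen, were Ccnb2, cyclin B2, at 1.34 in cluster 4 and 1.35 in cluster 1, and Kif15, a spindle kinesin, at 0.770 in cluster 4 and 0.782 in cluster 2. Among the 108, the second highest cluster was cluster 2 for 65 genes, cluster 1 for 41 and cluster 3 or 5 for the other two. Genes just past the threshold were Spc24 (ratio 2.01), Mns1 (2.02) and Jpt1 (2.05), and those just short of it were Nup35 (1.99), Haus3 (1.98) and Cks1b (1.97).

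The largest ratio over all other cells was that of Gas2l3, which links actin and microtubules late in division, at 1.17 UMIs per 10000 in cluster 4 (7.16-fold higher, 6.51 to 7.87). Ube2c was 6.89-fold higher (6.69 to 7.10) and Prc1 6.85-fold higher (6.56 to 7.16). Aspm and Nusap1, proteins of the spindle poles and spindle fibres, were 6.60-fold and 6.43-fold higher, respectively. Kpna2, an importin that carries spindle factors into the nucleus, was 6.39-fold higher. Cenpe, the kinetochore motor, was 5.78-fold higher and Kif20b, a motor of cytokinesis, 5.47-fold. Of the kinases, Aurka was 5.72-fold higher and Plk1, the Polo kinase, 5.10-fold higher. Sgo2a, which protects centromere cohesion, was 5.22-fold higher. Ccnf, cyclin F, was 5.08-fold higher. Every one of these stood above its level in each other cluster.

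The genes lower than in all other cells were few. The 3 past 2-fold were the histone genes Hist1h2ap (0.257 UMIs per 10000 against 0.703, ratio 0.366) and Hist1h1b (ratio 0.372), and Mxd4, a partner of Max that opposes Myc (0.467 against 0.939, ratio 0.498). Hist1h2ap was at 2.13 in cluster 2 and 0.323 in cluster 3, above cluster 4, and at 0.0695, 0.125 and 0.0963 in clusters 0, 1 and 5, below cluster 4. Mxd4 was at 1.68 in cluster 0 and 0.337 in cluster 2. Histone genes of this kind are transcribed in S phase and mostly give messages without a poly(A) tail. The following genes in the ranking did not reach 2-fold: Apln at 0.512, Slbp, which binds histone messages, at 0.547, and Mcm4, Mxra8, Atad2, Mcm6 and Nxph1 between 0.573 and 0.590.

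By role, the list of mitotic cyclins and kinases was one of those with most members past the fold. Of its 24 members, 16 reached the minimum level and 15 were at least 2-fold higher than in all other cells, 12 than in cluster 1 and 7 than in cluster 2. Beside this list and those that follow, 3.59% of all genes compared were higher than in all other cells. Against cluster 1 this share was 2.43%, and against cluster 2 it was 1.83%. The list's summed level was 36.3 UMIs per 10000 in cluster 4, 10.7 in all other cells, 16.5 in cluster 1 and 18.2 in cluster 2. The median log2 ratio of the list over all other cells was 1.71, beside -0.01 for all genes with enough UMIs. Cks2, a small subunit of Cdk complexes, was at 6.01 against 2.89 in cluster 1 and 2.34 in cluster 2. Cdk1 was at 5.42, 4.52-fold above cluster 1 and 1.74-fold above cluster 2. Aurkb, the kinase of the chromosomal passenger complex, was 8.45-fold above cluster 1 and 1.17-fold above cluster 2.

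For the APC/C and the spindle checkpoint, 19 of 30 members reached the minimum level. Of the 19, 7 were past the fold against all other cells, beside 3.59% of all genes compared. The 7 were Ube2c, the activators Cdc20 and Fzr1, and the checkpoint proteins Bub1, Bub1b, Bub3 and Mad2l1. The subunits of the APC/C itself did not follow: Anapc5 was at 1.56 in cluster 4 and 1.55 in cluster 1, Anapc11 at 2.17 and 2.14, and Anapc13 at 1.25 and 1.42. Ube2s, the enzyme that lengthens the ubiquitin chain, was at 10.7 in cluster 4 against 9.66 in cluster 1 and 6.61 in cluster 2. Fbxo5, the APC/C inhibitor also called Emi1, was 8.33-fold above cluster 1 (0.568 against 0.0683) and at 0.696 of its level in cluster 2.

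Of 37 centromere and kinetochore genes, 20 were compared with all other cells and 15 were past the fold, beside 3.59% of all genes. Against cluster 1, 12 of 20 compared were past it, and against cluster 2, 7 of 22. The list summed to 43.5 in cluster 4 and 15.0 in all other cells. Cenpa, the centromere histone, stood at 5.44 in cluster 4, 4.63 in cluster 1 and 1.43 in cluster 2, and so was close to cluster 1. In the list of the passenger complex, midzone and cytokinesis, 18 of 20 members reached the minimum level. Past the fold were 16 against all other cells, 11 against cluster 1 and 6 against cluster 2. Arl6ip1, the most abundant of the list, was at 10.6 in cluster 4, 9.95 in cluster 1 and 3.81 in cluster 2. Birc5, survivin, was at 4.63, 2.81 and 2.59 in that order. Rhoa, the small GTPase of the contractile ring, was between 3.57 and 3.95 in all 6 clusters.

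Among 24 spindle motors and microtubule proteins, 19 reached the minimum level. Past the fold were 17 against all other cells (beside 3.59% of all genes), 10 against cluster 1 and 14 against cluster 2. Tpx2, which activates Aurka on the spindle, was at 3.65 in cluster 4, 2.14 in cluster 1 and 1.58 in cluster 2. Stmn1, a tubulin-binding protein, was at 7.55, 6.80 and 6.57, short of the fold. Of 11 tubulins, 8 reached the minimum level and 1, Tubb4b, was past the fold. Tubb4b was at 11.3 in cluster 4, 9.11 in cluster 1 and 5.35 in cluster 2. Tubb5, at 18.7, was 1.51-fold above all other cells. The list of condensin, cohesin and chromatin proteins had 10 of 23 compared members past the fold against all other cells and 0 of 25 against cluster 2. Against cluster 2, 1.83% of all genes were higher and 1.09% lower. Mki67, the proliferation antigen Ki-67, was at 5.41 in cluster 4, 3.52 in cluster 2 and 1.83 in cluster 1. Hmgb2 was at 15.9 in cluster 4, 11.7 in cluster 2 and 10.4 in cluster 1.

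The sets of genes past the 2-fold line against cluster 1 and against cluster 2 differed and overlapped in part. Against cluster 1, 74 of 3051 genes were at least 2-fold higher (2.43%) and 0 lower. Against cluster 2, 57 of 3118 were higher (1.83%) and 34 lower (1.09%). Higher than in both were 29 genes, which is 39.2% of the first set and 50.9% of the second, and 4 of the 5 markers, all but Top2a, were past the fold in both. A further 45 genes were past the fold against cluster 1 alone and 28 against cluster 2 alone. A mitosis or tubulin list held 56 of the 74 higher than in cluster 1 and 39 of the 57 higher than in cluster 2. Membership rests on a hard line: Kif23, for one, was 4.16-fold above cluster 1 and 1.99-fold above cluster 2. These comparisons share the cells of cluster 4, so the overlap is given as a count only.

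Among the largest ratios over cluster 1 were those of Kpna2 (10.7, 8.97 to 12.8), Aurkb (8.45), Prc1 (8.35), Fbxo5 (8.33), Top2a (7.96), Ccnf (7.81) and Nusap1 (7.28). Fbxo5, Aurkb, Top2a and Ccnf stood at 0.0683, 0.128, 1.19 and 0.102 UMIs per 10000 in cluster 1, and at 0.816, 0.927, 5.88 and 0.394 in cluster 2. The largest ratios over cluster 2 were those of Aspm (4.66), Cdkn3 (4.32), Cdc20 (4.23), Cenpf (4.18), Gas2l3 (4.09), Ccnb1 (3.90), Cenpa (3.82) and Ube2c (3.62). Of these, Cdc20, the APC/C activator of anaphase, was at 3.78 in cluster 4 and 2.68 in cluster 1, and Cdkn3, a phosphatase of Cdk proteins, at 1.21 and 1.12. Cluster 1 thus had Cdc20, Cdkn3, Cenpa and Ccnb2 near the level of cluster 4, with little Kpna2 and Aurkb. The lowest ratios over cluster 1 were all short of 2-fold: Mxd4 at 0.566, Hist1h2bc at 0.619, and Rnf14, Slc5a3, Ntmt1, Rrp7a, Fam136a and Fjx1 between 0.660 and 0.723.

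**Figure D2:**
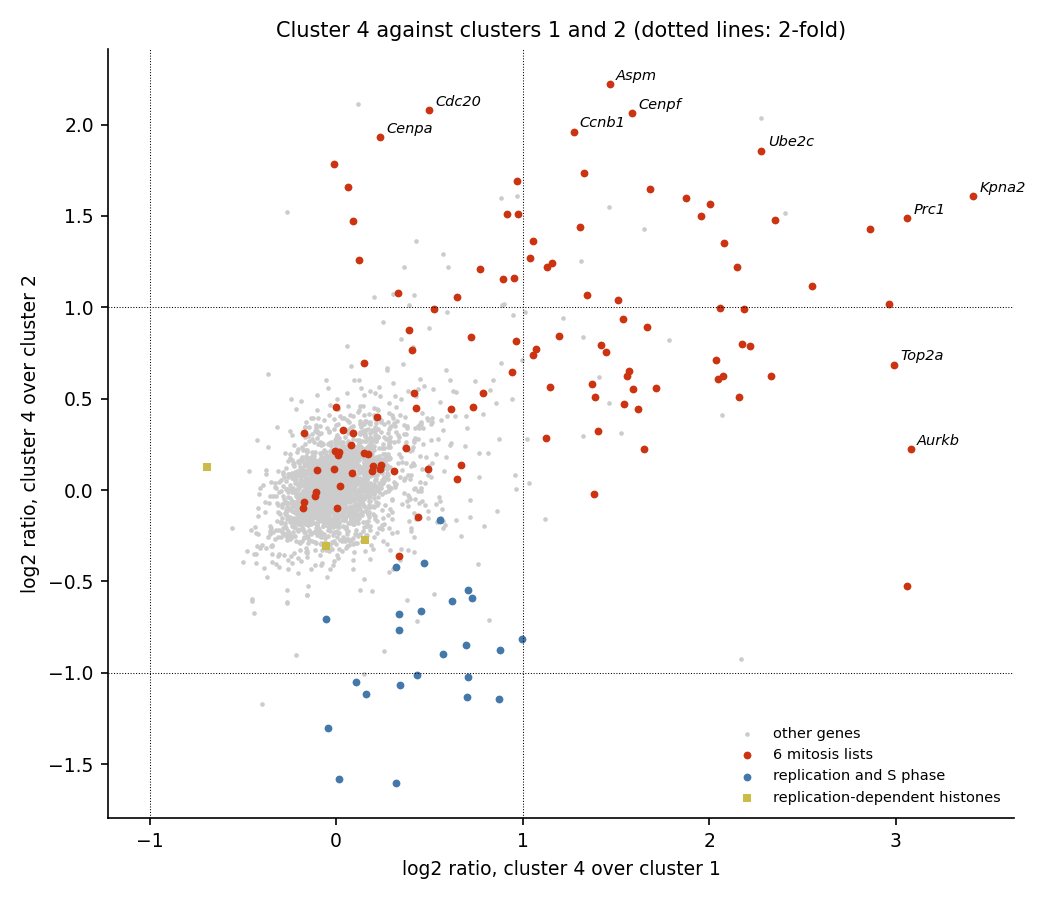
Log2 ratio of cluster 4 over cluster 1 (horizontal axis) and over cluster 2 (vertical axis) for the 3004 genes compared in both, with mitosis genes in red, replication genes in blue and histone genes in yellow. Most genes past both dotted 2-fold lines at the upper right are mitosis genes, other mitosis genes lie short of one line or both, Cdc20 and Cenpa lie high but near 0 against cluster 1, Aurkb and Top2a lie right but below the line against cluster 2, and replication genes lie below 0 against cluster 2.

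The 34 genes lower than in cluster 2 were mostly those of S phase. They included 22 members of the replication list and 4 histone genes. Hist1h2ap was at 0.257 in cluster 4 and 2.13 in cluster 2 (ratio 0.121), and Hist1h1b (0.121), Hist1h1e (0.144) and Hist1h2ae (0.154) were near it. Ccne1, cyclin E1, which starts S phase, was at 0.102 against 0.702 (0.146). Hells, a chromatin remodeller, was at 0.223 of cluster 2, Chaf1b, a histone chaperone, at 0.243, and Atad2 at 0.266. All 6 subunits of the MCM helicase were among the 22. The replication list as a whole summed to 31.9 UMIs per 10000 in cluster 4, 61.8 in cluster 2, 43.7 in cluster 3 and 23.6 in cluster 1. It summed to 11.5 in cluster 0 and 9.52 in cluster 5. Against all other cells together, a mix of clusters above and below cluster 4, its sum was level (32.8). Of 28 compared members, 0 were past the fold either way. Of all genes 3.59% were higher and 0.0980% lower, so 0 of 28 shows no difference from that share. The most abundant member of the replication list, Pclaf, a partner of the replication clamp, was at 4.63 in cluster 4, 6.96 in cluster 2 and 2.80 in cluster 1.

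The lists of G1 genes, CDK inhibitors and cell identity had fewer members past the fold than the mitosis lists, but also fewer members compared. The counts thus do not rank the lists. Of the G1 cyclins, Rb and E2F genes, 0 of 4 compared members were past it, beside 3.59% of all genes higher and 0.0980% lower, and so small a list can show no difference from that share. Ccnd1, cyclin D1, had its lowest level in cluster 4, and stood between 13.7 and 17.4 UMIs per 10000 in the other 5. Of the CDK inhibitors and p53 targets, 11 members were compared, of which Cdkn2c, Cdkn2d and Cdkn3 were past the fold and higher than in all other cells, and Mxd4 lower. Cdkn1a, the inhibitor p21, was at 8.60 in cluster 4, 9.30 in cluster 2 and 4.73 in cluster 1. In the list of stem and progenitor genes Mki67 alone of 14 compared members was past the fold, and the list summed to 91.5 in cluster 4 and 92.6 in all other cells. Fabp7, a lipid-binding protein of radial glia, was at 44.3 against 39.6 to 51.2 in the other 5 clusters, and Vim, vimentin, at 15.2 against 16.2 to 19.9.

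Markers of other cell types were low or level. The neuroblast and neuron list, with 16 of 19 members analysed, summed to 9.12 in cluster 4 and to between 8.12 and 10.6 in the other 5 clusters, and Sox11 at 3.32, Sox4 at 3.17 and Map2 made up most of it. Dcx, Neurog2 and Stmn2 were not analysed here. Neurod1 and Eomes had 5 UMIs each in all of cluster 4 and Rbfox3 had 12. The oligodendrocyte lineage list, with 7 of 12 members analysed, summed to 13.5 in cluster 4, 16.2 in all other cells and 13.3 in cluster 2, the lowest. Olig1 at 7.47 and Olig2 at 5.77, which progenitors also express, made up nearly all of it, while Pdgfra had 2 UMIs. Sox10, Mbp, Mog, Mag and Bmp4 were not analysed here. The astrocyte list, with 10 of 10 members, summed to 4.40 against 3.86 to 7.69 elsewhere, with 6 UMIs of Gfap and 1 of Aqp4. Gja1, a gap junction protein, was its only member past the fold against cluster 2 (ratio 2.08). The microglia, vessel and blood list, with 7 of 17 members analysed, summed to 0.233 against 0.202 to 0.219 elsewhere. Pecam1 had 3 UMIs, and Csf1r, Cx3cr1, Aif1, C1qa, C1qb, Tyrobp, Cldn5, Pdgfrb, Hbb-bs and Hba-a1 were not analysed here. The median mitochondrial share of UMIs was 9.74% in cluster 4 and 10.5% in the other cells. Xist, which marks cells of the female cultures, had a UMI in 44.4% of cluster 4 cells drawn to 2000 UMIs, in 47.2% of the others, 36.2% of cluster 1 and 50.1% of cluster 2. At full depth the Xist shares were 52.7% in cluster 4, 59.0% in the others, 46.3% in cluster 1 and 60.3% in cluster 2. Its level in cluster 4 was 1.56 times that in cluster 1. Y-linked genes had a UMI in 10.5% of thinned cluster 4 cells and 8.94% of the others, and in 21.4% and 15.4% at full depth.

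A further 28 of the 110 higher genes were in none of the lists, and the following were picked from them after their values were seen. G2e3, a ubiquitin ligase, was at 0.949 UMIs per 10000 in cluster 4 and 4.95-fold above all other cells. Sapcd2, which acts on spindle orientation, was 4.59-fold higher, Depdc1a 4.47-fold and Trim59 4.41-fold. Dbf4, the activator of the replication kinase Cdc7, was at 1.43 in cluster 4, 0.616 in cluster 1 and 0.745 in cluster 2. Tnfaip6, a secreted binding partner of hyaluronan, was at 0.648 and 2.17-fold higher. In the list of secreted factors 0 of 17 compared members were past the fold, beside 3.59% of all genes higher and 0.0980% lower. So short a list can show no difference from that share. The most abundant member of the secreted factors, Dbi, was at 27.4 in cluster 4 and at 22.2 to 32.0 in the other 5.

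Cells of cluster 4 differed from cells of other clusters in the summed UMIs of each mitosis list, drawn to 2000 UMIs per cell. For mitotic cyclins and kinases the median cell had 7 UMIs (quartiles 5 and 9) in cluster 4, 3 in clusters 1 and 2, and 0 in clusters 0 and 5. In cluster 4, 4 of 1428 cells had none (0.280%), against 8.92% of cluster 1 and 4.88% of cluster 2. For centromere and kinetochore genes the median was 9 in cluster 4 and 4 in clusters 1 and 2, and the 5th percentile of cluster 4 stood at that median of 4. For the passenger complex list the medians were 9, 5 and 4 in clusters 4, 1 and 2. For replication genes the order was another: 12 in cluster 2, 8 in cluster 3, 6 in cluster 4, 4 in cluster 1 and 2 in clusters 0 and 5. Of the cluster 4 cells, 7 were at 0. Histone genes had a median of 1 in cluster 4 and 2 in cluster 2.

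**Figure D3:**
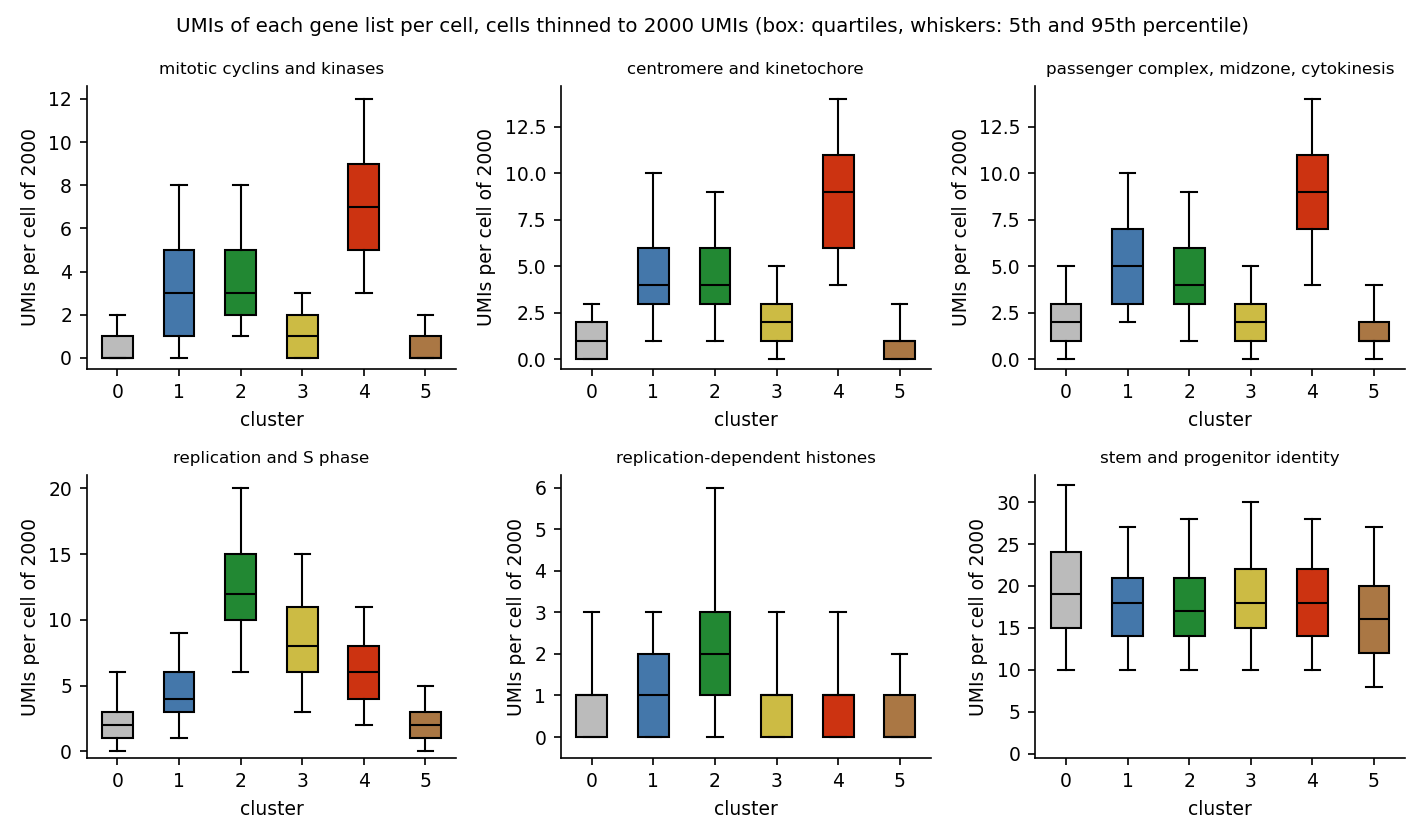
UMIs of 6 gene lists per cell (vertical axis) by cluster, each cell drawn to 2000 UMIs, with the box at the quartiles, a line at the median and whiskers at the 5th and 95th percentiles. Cluster 4 has the highest box in the 3 mitosis panels, cluster 2 in the replication and histone panels, and the identity panel has medians of 16 to 19 in all 6 clusters.

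Within cluster 4 the spread of these genes was compared with counting error in thinned cells only. At full depth Ube2c had a median of 5.50 UMIs per cell (quartiles 3 and 8, largest 19), Cenpf 4 (2.75 and 6), Cdk1 3 (1 and 4) and Plk1 1 (0 and 2). In thinned cells the variance of the 27 genes followed here was 0.963 to 1.23 times their mean, where counting alone gives a variance equal to the mean. The largest value was that of Arl6ip1. Drawing fewer UMIs itself moves this ratio toward 1, and the ratio at full depth is not given. The clusters were made from the same values, which also limits the spread within a cluster. The thinned ratios thus cannot show whether these genes varied beyond counting error at full depth. Spearman correlations between pairs of these genes over the 1428 cells, which share 1 library and 1 depth, lay between -0.08 (Anapc5 with Incenp) and 0.11 (Cenpf with Prc1) for 351 pairs. In counts this sparse such weak values are no finding. The sums of whole lists correlated a little more, up to 0.18 for centromere with spindle genes, and were at -0.08 for the passenger complex with replication genes.

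The bulk libraries give these genes in samples that the clustering did not use. Gene counts summed to between 9917697 and 11747408 in the 4 cultures and to 16676618 and 17351636 in the 2 whole dentate gyrus libraries. Values are counts scaled to the size of the library (CPM), and groups were compared with edgeR's quasi-likelihood test, Benjamini-Hochberg adjusted over 18088 genes. Culture libraries were made with the SMART/Seq HT kit and tissue libraries with the NEBNext Ultra II Directional kit, so kit and group cannot be told apart. Across all genes 6440 were higher in the cultures (35.6%) and 7536 lower (41.7%). In bulk samples fewer cells of a type and less RNA per cell cannot be told apart either.

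Of the 110 genes higher in cluster 4 than in all other cells, 106 were tested in bulk, 97 were higher in the cultures (91.5%, beside 35.6% of all genes) and 3 were lower. Their median log2 difference, culture minus tissue, was 4.67, against -0.13 for all genes tested. The genes lower in cluster 4 than in cluster 2 gave nearly the same picture, with 32 of 34 higher in the cultures and a median of 4.01. Both sets, mostly mitotic and mostly replicative genes, had shares above that of all genes. That share is no matched background, since both sets had to reach a minimum level in cultured cells. Lists outside mitosis and replication varied. Of cytosolic ribosomal protein genes 65.4% were higher in the cultures, of stem and progenitor genes 61.9%, and of neuroblast and neuron genes 6.25%.

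Ube2c was at 137 CPM in culture F1, 172 in F2, 70.6 in M1 and 139 in M2, and at 3.42 and 2.68 CPM in the tissue of F1 and M2. The groups did not overlap, and edgeR gave 5.40 ± 0.43 (SE) on the log2 scale, culture minus tissue (adjusted p = 9.10e-06). Cenpf was at 63.0, 131, 39.3 and 75.3 CPM in cultures F1, F2, M1 and M2 and at 3.16 and 2.68 in tissue (4.72 ± 0.54 on that scale by edgeR, adjusted p = 7.87e-05). Again culture F2 was highest, M1 lowest, and no culture came near the tissue. Top2a was at 345, 383, 230 and 346 CPM in the same cultures and at 2.97 and 3.59 in tissue, Prc1 at 226, 295, 130 and 260 against 3.36 and 5.47. Ccnb1 was at 291, 390, 139 and 295 CPM against 1.42 and 0.852 in tissue, the largest difference of the 5 (7.93 ± 0.57 by edgeR, adjusted p = 5.25e-06). All 5 markers were higher in 4 of 4 cultures than in both tissues. The share of all genes separated in this way is not given here, and 35.6% of all genes tested were called higher in the cultures.

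Gas2l3 was at 33.7 ± 10.1 CPM (SD, n = 4) in cultures and at 1.70 and 1.36 in the tissues of M2 and F1, a log2 difference of 4.45. Plk1 was at 155 ± 67.2 CPM (SD, n = 4) in cultures and differed by 6.91 on the log2 scale. Among the genes that were low in cluster 4, Hist1h2ap stood at 262 ± 99.2 CPM (SD, n = 4) in cultures and 4.26 and 3.55 in the tissues of M2 and F1, a log2 difference of 6.07. Mxd4 was at 64.3, 56.3, 96.4 and 109 CPM in cultures F1, F2, M1 and M2 and at 108 and 129 in the tissues of F1 and M2. These groups overlapped, and edgeR gave -0.54 ± 0.26 (SE, adjusted p = 0.0908). It was below the 0.05 threshold in 3 of the 11 alternatives, at 0.0493 with DESeq2, 0.0270 without culture M2 and 0.0456 with the replicate block.

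The 9 genes of the 106 that were not higher in the cultures, named after their values were seen, were of several kinds. Rad21, the cohesin subunit cleaved at anaphase, was lower by edgeR (-2.09 on the log2 scale, adjusted p = 1.94e-06), as were Ubald2 (-0.75, adjusted p = 0.0388) and Rangap1, a regulator of nuclear transport and spindle assembly (-0.60, adjusted p = 0.0265). Odf2, Ckap5, Cenpc1, Cit, Cdkn2d and Usp2 had log2 differences between -0.12 and 0.38 and did not pass the test. Ckap5, a microtubule polymerase, was at 227 ± 20.7 CPM (SD, n = 4) in cultures and 192 and 199 in the tissues of M2 and F1, and these groups overlapped.

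**Figure D4:**
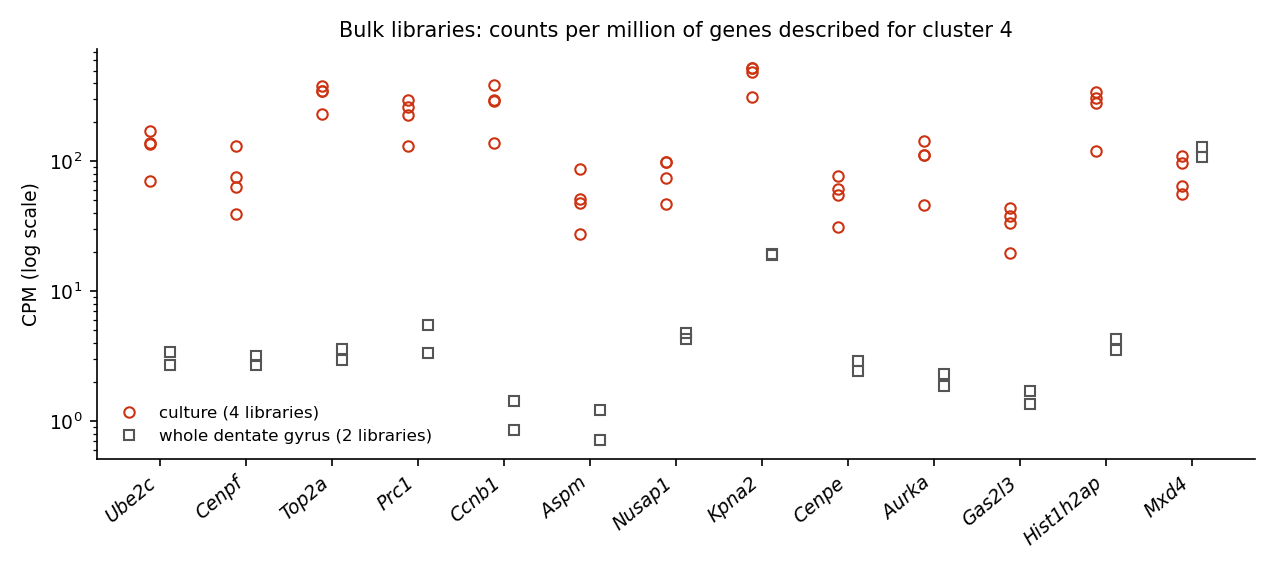
CPM (log axis) of 13 genes described for cluster 4 in 4 culture libraries (circles) and 2 whole dentate gyrus libraries (squares). All genes but Mxd4 have their 4 circles above both squares.

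The cultures themselves differed in these genes. Culture M1 had the lowest CPM of the 4 in 104 of the 106 higher genes of cluster 4 (98.1%), beside 22 of the 34 genes lower than in cluster 2 (64.7%) and 5544 of all 18088 genes tested (30.7%). Its median log2 ratio to the mean of the other 3 was -0.83 for the 106 genes, -0.37 for the 34 and 0.00 for all genes. Culture F2 had medians of 0.39, 0.06 and 0.00. This is 1 library for each culture and was noticed in these values, so it is given without a test, and the genes move together and are not independent. Without culture M1, 101 of the 106 genes were higher in the cultures than in tissue. The labels give passages only as the range 6 to 15 for all cultures, and the cause of this difference was not tested.

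The promoters of these genes shared more than the rule that chose the cells had used. RefSeq windows of 300 bases, from 250 before to 50 after each start, were found for 89 of the 110 genes higher than in all other cells (104 windows, some overlapping within a gene). The CHR letters TTTGAA were in 61 of the 104 windows (58.7%, exact binomial 95% interval 48.6 to 68.2%). They were in 335 of 2978 windows of compared genes that were not higher (11.2%) and in 17.9% of all 32851 windows. CCAAT was in 70.2%, 38.4% and 37.4% of the same sets. Both were present in 51 of the 104 windows (49.0%) and in 4.60% of windows of genes not higher. Cdk1, Plk1, Aurka, Aspm, Kpna2, Ccnf and Cenpa had both in their window, Cenpe and Gas2l3 had CCAAT without TTTGAA, and Nusap1 had neither.

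The genes lower than in cluster 2 differed from these. Of their 32 windows, found for 25 of 34 genes, 3 held TTTGAA (9.38%) and 22 held CCAAT (68.8%). An E2F word was in 11 of the 32 (34.4%, 18.6 to 53.2%), beside 5.77% of windows of the higher genes, 4.84% of windows of genes not higher and 2.26% of all windows. The CHR matches of the higher genes lay near the start: from 25 bases before it to the base before it 9.62% of windows had one, and over the first 25 bases after it 15.4%, against 0.907% and 0.571% of windows of genes not higher. CCAAT matches were most frequent from 75 to 51 bases before the start, with 26.0% of windows. Genes past the fold against cluster 1 alone had TTTGAA in 47.5% of 40 windows, those against cluster 2 alone in 63.0% of 27 and those against both in 63.3% of 30. From 100 bases before to 50 after the start the shares were 45.0%, 29.6% and 60.0%, so the order of the first and second sets turned with the window. These are matches of letters, not measured binding.

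**Figure D5:**
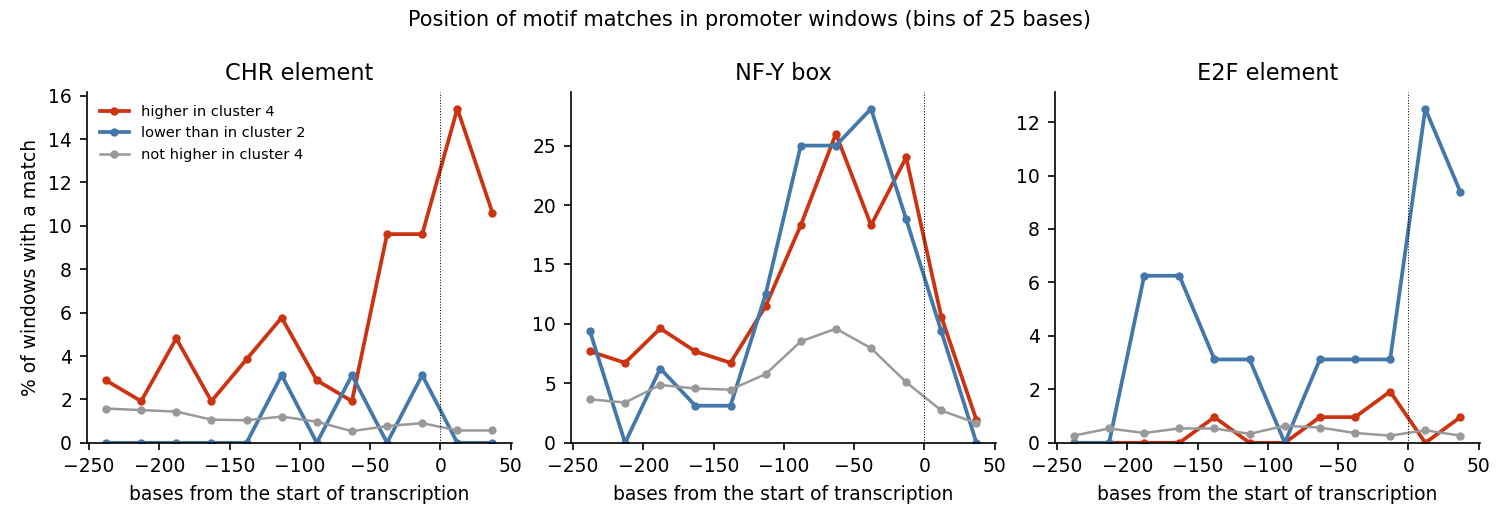
Percent of promoter windows with a match beginning in each bin of 25 bases (vertical axis) by distance from the start of transcription (horizontal axis), for genes higher in cluster 4 (104 windows), lower than in cluster 2 (32 windows) and compared but not higher (2978 windows). CHR matches of the higher genes rise from 50 bases before the start, CCAAT matches (NF-Y box panel) of the higher genes and of those lower than in cluster 2 lie mostly within 100 bases before it, and E2F elements appear mainly in genes lower than in cluster 2, where 1 window is 3.12%.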

How the data were processed

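In the single-cell table the authors deposited natural log values: ln(1 + UMIs per 10000), 1 column a cell, named by its cluster. Whole UMIs were recovered, with 100% of values within 0.01 of a whole number. Versions differ between the labels' protocol (Cell Ranger 3.0.2, Seurat 3.0.1) and the submitters' processing notes (Cell Ranger 3.1.0, Seurat 3.1.0). No source used here gives the authors' filter on cells, and none was added.

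The bulk table holds raw counts per gene, deposited by the authors. The submitters' processing notes name HISAT2 2.0.6, featureCounts and the build GRCh38, although the symbols are mouse symbols. No source used here states the use of strand, so overlapping genes cannot be told apart. The test on bulk counts was that of edgeR 4.0.16 under R 4.3.3 (robust quasi-likelihood F test, TMM scaling, default filter on low counts, group as the only term, Benjamini-Hochberg threshold 0.05), and DESeq2 1.42.0 was an alternative. The labels name 4 cultures and 2 mice, so p-values measure the spread between these.

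Level ratios carry exact conditional intervals, shares Clopper-Pearson intervals and levels Poisson intervals, all at 95%. Both scripts were tested on simulated data. Named genes were the 5 markers, the 15 highest and 10 lowest ratios against all other cells, the 8 each way against clusters 1 and 2, and the 2 most abundant members of each list, without unnamed gene models. Within cluster 4, the 27 genes followed were the 5 markers and members of 3 mitosis lists at 1 UMI per 10000 or more. A list member named because it passed the fold was chosen after its values were seen. Some genes that this rule names are not reported here. The members, gene lists and tests were chosen with earlier results of these data known. Promoter matches used exact letters in Python 3.11.15.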

Additional observations from a re-analysis of the deposited data

How the results depend on the processing

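The counts of genes past 2-fold between clusters kept within 1.5 times their value under means over cells, thinning, removal of the deepest 5% of cells and removal of cells above 20% mitochondrial UMIs. The exception was cluster 4 below cluster 1, with 1 gene after thinning in place of 0. With a minimum level of 0.2 UMIs per 10000 the counts grew to 165 higher and 12 lower against all other cells, 135 higher and 1 lower against cluster 1, and 86 higher and 71 lower against cluster 2. Among the named genes that reached the minimum level, no ratio moved by more than 1.29 times under these alternatives or with the other 5 clusters weighted equally, and no ratio past the fold changed direction. Without thinning, 98.2% of cluster 4 cells had a UMI of Ube2c, 96.8% of Cenpf, 97.0% of Top2a, 88.8% of Prc1 and 90.6% of Ccnb1. In bulk, 3671 genes were higher in cultures when a fold above 2 was asked for, and leaving out 1 library gave 5143 to 6418 higher and 6672 to 7620 lower. The cluster 4 genes higher in cultures numbered 93 to 101 over all alternatives. Libraries named F1 and M2 in both groups share only a name (correlation of their differences over genes 0.067), and with the replicate block 6098 genes were higher, 7579 lower, and 97 of the cluster 4 genes higher. In windows from 100 bases before to 50 after the start, an alternative chosen after seeing the data, 47.1% of the windows of higher genes held TTTGAA and 58.7% CCAAT. Counts in 1 library of 3 pooled cultures allow no statement on how cluster 4 varies between cultures.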
